A study of Homo sapiens with 6 samples.

Results

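The amino acid transporters described here are the protein-coding genes of the SLC1, SLC3, SLC6, SLC7, SLC36, SLC38 and SLC43 families in the deposited gene count table, apart from SLC7A11. Genes were taken by name and biotype alone, but these families were picked with earlier results of these data known. It gave 58 genes of 58735 in the table, or of 19951 protein-coding genes. Messenger RNA was sequenced from MOLT-3 cells, an established line of human T-cell acute lymphoblastic leukaemia. One group of 3 libraries had received compound E, which inhibits gamma-secretase and so keeps NOTCH receptors from being cut into their active intracellular form, and the other group of 3 had received the solvent DMSO alone. Neither dose nor duration of treatment is stated in the labels. Every library is from the same line, and no label says whether replicates were cultured separately, so the p-values reflect the spread among these 6 libraries, and that spread may be only technical.

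Amino acids cross the plasma membrane on carriers of overlapping specificity. Some carriers load a cell, by coupling uptake to sodium or to the membrane potential, and others exchange one amino acid for another. The large neutral amino acid exchangers are heterodimers, in which a light chain of the SLC7 family does the transport and a heavy chain of the SLC3 family brings it to the surface. Activated and leukaemic T cells are known for a high demand for leucine and glutamine through such carriers. Many SLC6 members carry neurotransmitters, osmolytes or creatine, and several SLC36 and SLC38 members act at the lysosome.

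Total counts per library were 17316138 to 19845114, and 16926 genes passed the filter on low counts and were tested with edgeR's quasi-likelihood test. All 11 markers of T-lineage leukaemia cells that were looked up were tested genes, with summed levels of 1363 to 1379 FPKM in the compound E libraries and 1496 to 1510 FPKM in the DMSO libraries. Of these 11 markers 4 rose and 6 fell, where 18.9% of all tested genes rose and 19.4% fell. Among them were CD2 (1.92-fold higher), PTPRC (1.33-fold higher), CD7 (1.66-fold lower) and CD1E (1.59-fold lower). The part of these marker changes in the results below was not tested. FPKM is the deposited level, scaled to gene length and to depth. Of 17 markers of other cells, 6 were at 0 in every library, MS4A1, PAX5, MPO, HBB, COL1A2 and DCN. CD79A stood at 9.03 ± 0.387 FPKM with compound E and 8.68 ± 0.598 FPKM with DMSO (SD, n = 3 each), and the other 16 summed to 1.55 to 1.72 FPKM in compound E libraries and 2.11 to 2.20 FPKM in DMSO libraries. The NOTCH targets NOTCH3, DTX1, HES4 and HES1 and the NOTCH-driven gene MYC all fell, with log2 fold changes, compound E over DMSO, of -4.90 to -0.84.

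Of the 58 transporters, 30 passed the filter on low counts. Among these 30, 17 fell with compound E, 5 rose and 8 did not pass the test, at a Benjamini-Hochberg adjusted p under 0.05 over all 16926 tested genes. The 22 called genes compare with 38.3% called among all tested genes. The 17 that fell are 56.7% of the tested transporters, where 19.4% of all tested genes fell. The 5 that rose are 16.7%, near the 18.9% of all tested genes that rose. At 2-fold or more 9 of the 30 fell, beside 2.63% of all tested genes, and 1 rose, beside 1.2%. Libraries of the groups did not overlap in 22 of the 30 (73.3%), beside 46.8% of all tested genes. Their median log2 fold change was -0.32, against -0.0034 over all tested genes. These counts describe the genes that passed the filter, and SLC6A20 and SLC1A7 passed it only through the DMSO libraries, where they were higher. Among the 12 transporters with a mean of at least 10 FPKM, a level chosen after the values were seen, 8 fell and 3 rose (66.7% and 25.0%), where 23.1% of the 4936 genes at that level fell, 33.5% rose and 56.6% were called in either direction.

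**Figure D1:**
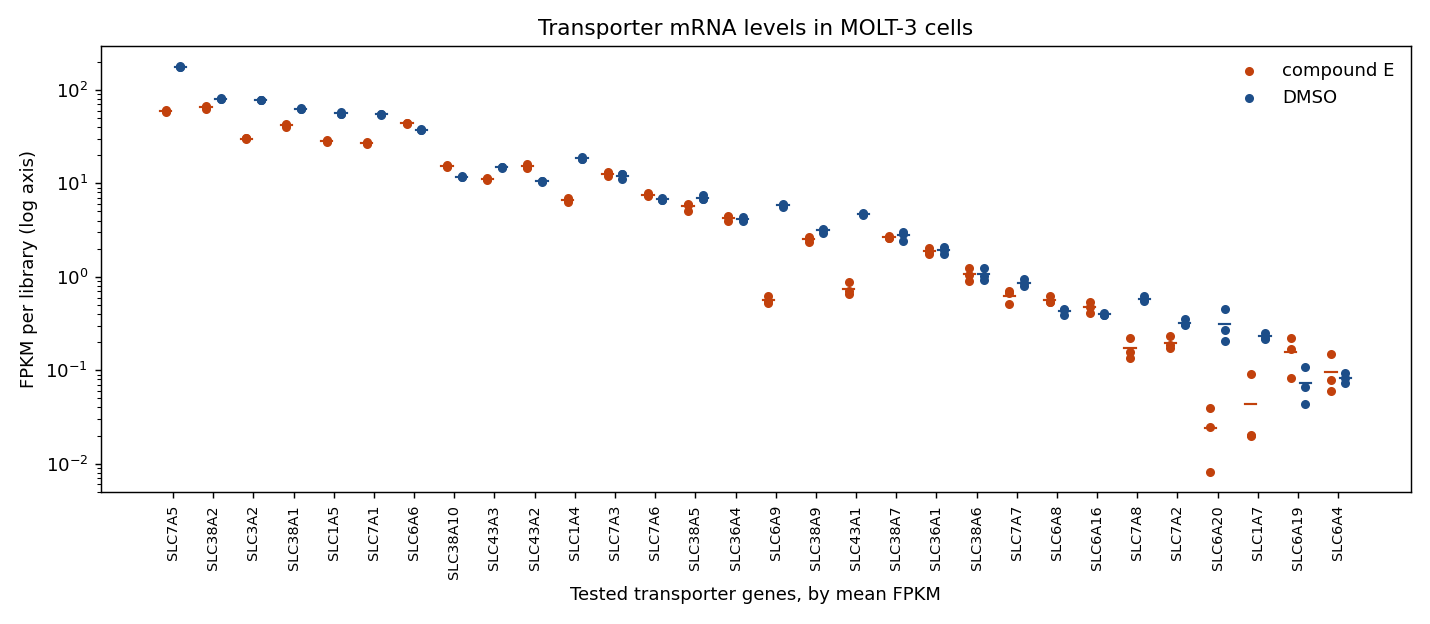
FPKM of the 30 tested transporters in each library, on a log axis, in the order of their mean level. Points are the 3 libraries of each group, with compound E left and DMSO right, and bars are group means. The widest gaps between groups lie at SLC6A9, SLC43A1 and SLC6A20, and SLC7A5 is highest with DMSO, at 177 FPKM.

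With compound E the order of the highest levels was SLC38A2 (65.3 FPKM), SLC7A5 (59.8), SLC6A6 (44.0), SLC38A1 (41.7), SLC3A2 (30.2), SLC1A5 (28.4) and SLC7A1 (26.9), and the libraries of each neighbouring pair were separate. With DMSO it was SLC7A5 (177 FPKM), SLC38A2 (80.6), SLC3A2 (77.9), SLC38A1 (62.8), SLC1A5 (56.3), SLC7A1 (55.1) and SLC6A6 (37.7), and of these neighbours only SLC1A5 and SLC7A1 overlapped. The 6 highest with DMSO all fell, and the next, SLC6A6, rose. Of all tested genes with a mean of at least 10 FPKM, 23.1% fell. A choice by the DMSO level favours genes that fell, and the 6 highest with compound E include SLC6A6. The 6 highest with DMSO held 65.1% ± 0.483 of the summed FPKM of the 58 transporters with compound E and 77.6% ± 0.154 with DMSO (SD, n = 3 each). This difference in share is in part built into that choice. SLC7A5 alone held 15.4% ± 0.315 with compound E and 27.0% ± 0.194 with DMSO. The sum over all 58 genes was 387 ± 0.512 FPKM with compound E and 657 ± 3.34 FPKM with DMSO. Without SLC7A5 it was 328 ± 1.28 FPKM with compound E and 479.8 ± 2.68 FPKM with DMSO. FPKM is scaled to depth, so these sums are relative levels and do not measure transcripts per cell. Lower relative levels within cells cannot be told apart here from a shift in the mixture of cells, since each library is a bulk sample.

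**Figure D2:**
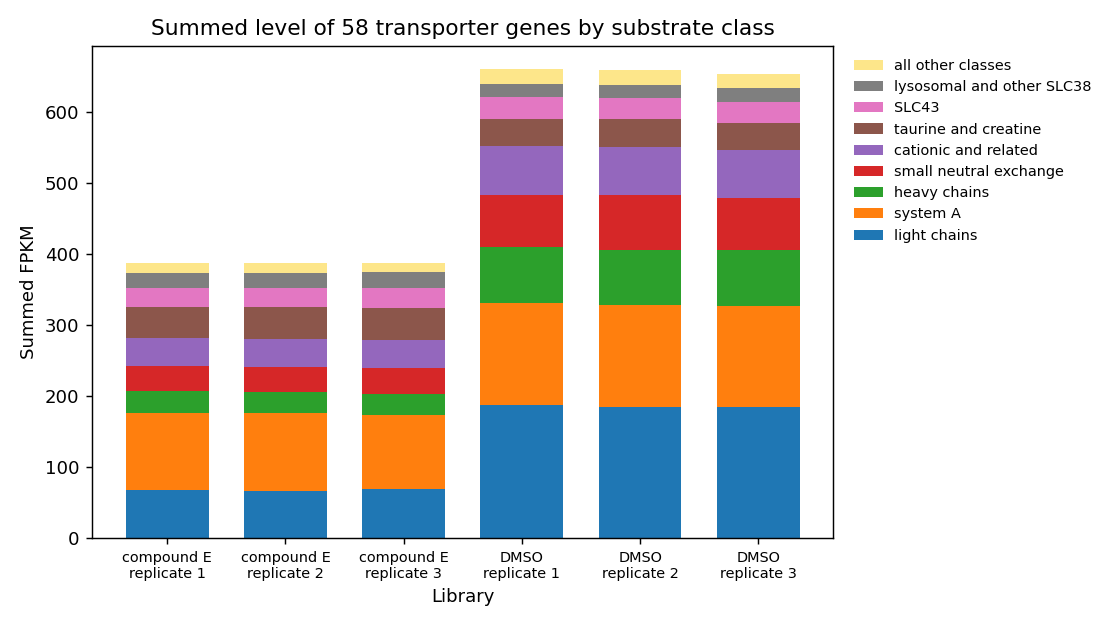
Summed FPKM of the 58 transporters in each of the 6 libraries, stacked by substrate class, from the deposited FPKM. The compound E libraries stand at 387 to 388 FPKM and the DMSO libraries at 653 to 660 FPKM, and the light-chain block shows the largest difference.

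Sequences near annotated starts are shown for 7 members that fell and whose windows held a motif match, a choice made after the matches were seen, because carriers of this group are known as targets of ATF4 and MYC. RefSeq's promoter table (GRCh38.p14, 250 bases before to 50 after a start) held 44 of the 58 transporters, 26 of the 30 tested ones, with 66 starts in all, and several genes have more than 1 start. Both strands were searched for TGATGNAAN, a core of the composite element bound by ATF4 with a C/EBP protein, for the E-box CACGTG that MYC can bind, which reads the same on both strands, and for GTGGGAA, an element of RBPJ, the DNA-binding partner of NOTCH. The first run shows the 250 bases before the start of SLC7A5 (chr16:87869508-87869757, minus strand) and the second those of SLC43A1 (chr11:57515703-57515952, minus strand), with the E-box in capitals. The others show a match to the composite core in capitals with up to 10 bases on each side.
SLC7A5: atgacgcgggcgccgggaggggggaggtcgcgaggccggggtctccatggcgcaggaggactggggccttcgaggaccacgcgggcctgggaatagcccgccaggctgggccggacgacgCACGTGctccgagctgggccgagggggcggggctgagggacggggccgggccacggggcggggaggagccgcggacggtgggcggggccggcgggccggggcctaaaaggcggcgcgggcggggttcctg
SLC43A1: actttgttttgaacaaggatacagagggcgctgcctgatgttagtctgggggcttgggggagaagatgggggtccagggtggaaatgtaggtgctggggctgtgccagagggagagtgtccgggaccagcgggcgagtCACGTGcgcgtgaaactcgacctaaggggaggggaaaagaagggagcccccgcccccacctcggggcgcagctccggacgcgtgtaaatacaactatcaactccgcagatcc
SLC1A4: gcggctcccgTTTGCATCAtctccagccg
SLC1A5: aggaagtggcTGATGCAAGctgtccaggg
SLC38A1: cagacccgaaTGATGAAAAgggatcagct
SLC3A2: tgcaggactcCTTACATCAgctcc
SLC7A1: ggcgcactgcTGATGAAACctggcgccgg

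Those 5 short runs lie at chr2:64989381-64989409 (SLC1A4, plus strand), chr19:46784893-46784921 (SLC1A5, minus strand), chr12:46266502-46266530 (SLC38A1, minus strand), chr11:62881725-62881748 (SLC3A2, plus strand) and chr13:29595663-29595691 (SLC7A1, minus strand). In SLC1A4 and SLC3A2 the match is on the opposite strand to the gene. Matches in SLC3A2 and SLC7A1 begin 37 and 8 bases into the transcript, counting the start as 1, and those in SLC1A4, SLC1A5 and SLC38A1 begin 8, 97 and 4 bases before an annotated start. The composite core was in 5 of 29 promoters of members that fell (17.2%) and in 0 of 16 promoters of the other tested members, beside 3.61% of all 35116 promoters of the table. An E-box was in 7 of 29 (24.1%) and 3 of 16 (18.8%), beside 7.26% of all promoters. Those in members that fell were in SLC7A5, SLC43A1, SLC1A5, SLC1A7, SLC38A5, SLC7A7 and SLC7A8, and those in members that did not pass the test were in SLC36A1, SLC38A7 and SLC6A16. The windows of SLC6A9, SLC38A2, SLC38A9 and SLC6A20, which all fell, held no match to these motifs. SLC43A3 and SLC7A2, which also fell, were not in the promoter table. The RBPJ element was in 0 of 29 and 1 of 16 (6.25%, SLC43A2), beside 6.25% of all. No match to one motif overlapped a match to another. Starts of one gene can overlap, the counts do not say which start was used, and a match is a description of letters only.

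The light chains fell in 3 of 4 tested members. SLC7A5 (ENSG00000103257; chromosome 16, 87830023 to 87869488, minus strand), the LAT1 exchanger that takes up leucine and other large neutral amino acids, had 59.8, 58.6 and 61.1 FPKM in the compound E libraries, against 179, 176 and 177 FPKM in the DMSO libraries. The groups were far apart and each varied little, and the gene fell 2.98-fold (log2 fold change -1.57 ± 0.0260 SE, edgeR adjusted p = 2.10e-35). SLC7A8, the related LAT2 exchanger, was at a low level, with 0.136, 0.156 and 0.221 FPKM with compound E, against 0.549, 0.625 and 0.573 FPKM with DMSO. Its groups did not overlap, and it fell 3.40-fold (log2 -1.77 ± 0.221 SE, edgeR adjusted p = 2.06e-08). SLC7A7, the y+LAT1 chain that exports arginine and lysine for neutral amino acids, averaged 0.631 ± 0.1003 FPKM with compound E and 0.863 ± 0.0802 FPKM with DMSO (SD, n = 3 each; log2 -0.46, edgeR adjusted p = 0.0245). That call was lost with DESeq2 (adjusted p = 0.149) and in edgeR without DMSO replicate 3 (0.102) or compound E replicate 3 (0.149).

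SLC7A6, the y+LAT2 chain, went the other way, averaging 7.58 ± 0.327 FPKM with compound E and 6.73 ± 0.158 FPKM with DMSO (SD, n = 3 each). It rose 1.12-fold (log2 0.16 ± 0.0465 SE, edgeR adjusted p = 0.00429), with no overlap between the groups, and the call was lost with limma on unfiltered FPKM (adjusted p = 0.0587). In GENCODE release 29, 44.4% of its exon bases are shared with SLC7A6OS on the opposite strand, which also rose (log2 0.40, edgeR adjusted p = 0.000391). Whether the counting used the strand is not stated in the labels, and the part of the overlap in the rise of SLC7A6 was not tested. Of the other light chains, SLC7A9 had 1 to 5 counts in a library, and SLC7A10 and SLC7A13 had 0 counts in all 6.

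SLC3A2 (ENSG00000168003; chromosome 11, 62856102 to 62888875, plus strand), the CD98 heavy chain that carries light chains such as SLC7A5 to the surface, had 30.6, 29.6 and 30.4 FPKM with compound E, against 77.9, 77.7 and 78.1 FPKM with DMSO. Both groups were tight, and it fell 2.59-fold (log2 -1.37 ± 0.0283 SE, edgeR adjusted p = 3.03e-32). The other heavy chain, SLC3A1, which pairs with SLC7A9 in kidney and intestine, had 1 to 3 counts in a library.

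Each light chain was also set against SLC3A2 within a library. SLC7A5 stood at 1.95, 1.98 and 2.01 times the FPKM of SLC3A2 with compound E, against 2.30, 2.27 and 2.26 times with DMSO, a log2 difference of -0.20. SLC7A6 stood at 0.238, 0.255 and 0.261 times SLC3A2 with compound E, against 0.0849, 0.0889 and 0.0854 times with DMSO, a log2 difference of 1.54. Most of that difference lies in SLC3A2, with a log2 fold change of -1.37 beside 0.16 for SLC7A6. The ratio of SLC7A7 was likewise higher with compound E although SLC7A7 itself fell. For SLC7A7 the ratio averaged 0.0209 ± 0.00339 with compound E and 0.0111 ± 0.0010 with DMSO, and for SLC7A8 0.00567 ± 0.00145 with compound E and 0.00748 ± 0.000510 with DMSO (SD, n = 3 each). The libraries of the groups were separate for SLC7A5, SLC7A6 and SLC7A7 and overlapped for SLC7A8. By an exact two-sided permutation test p was 0.1 for the first 3 ratios and 0.2 for SLC7A8, where 0.1 is the smallest p that 3 libraries against 3 allow, and the values adjusted over the 4 ratios were 0.133 and 0.2. The 7 light chains together summed to 2.26 ± 0.0394 times SLC3A2 with compound E and 2.38 ± 0.0199 times with DMSO. Among the 7 is SLC7A9, which pairs with SLC3A1 and averaged 0.0488 FPKM with compound E and 0.0690 FPKM with DMSO. With SLC7A11, which also pairs with SLC3A2, these sums were 2.29 ± 0.0402 times with compound E and 2.50 ± 0.0247 times with DMSO.

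**Figure D3:**
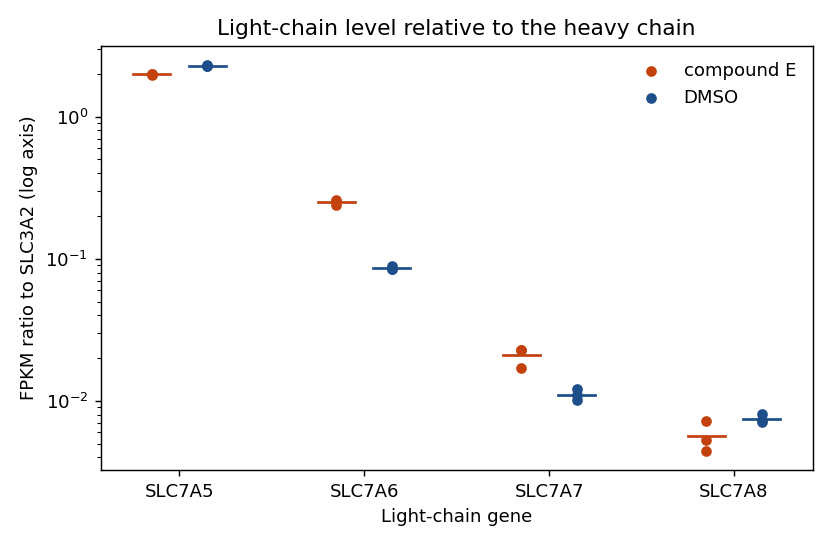
FPKM of the 4 tested light chains divided by the FPKM of SLC3A2 in the same library, on a log axis. Points are libraries, with compound E left and DMSO right, and bars are group means. The ratio of SLC7A6 is higher in all 3 compound E libraries, at 0.238 to 0.261, than in the DMSO libraries, at 0.0849 to 0.0889. Most of this difference lies in SLC3A2 (log2 fold change -1.37, beside 0.16 for SLC7A6).

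Both carriers of small neutral amino acids fell. SLC1A5 (ENSG00000105281; chromosome 19, 46774883 to 46788594, minus strand), the ASCT2 exchanger known for glutamine, had 28.3, 27.9 and 29.1 FPKM with compound E, against 55.8, 58.1 and 55.1 FPKM with DMSO. It fell 1.99-fold (log2 -0.99 ± 0.0337 SE, edgeR adjusted p = 4.81e-25). In GENCODE release 29, 23.4% of its exon bases are shared with AC008622.2 on the opposite strand. AC008622.2 had 0 to 1 counts with compound E and 0 to 2 with DMSO, and the part of that overlap in the level of SLC1A5 was not tested. SLC1A4 (ENSG00000115902; chromosome 2, 64988477 to 65023865, plus strand), the ASCT1 exchanger of serine, alanine and cysteine, had 6.89, 6.27 and 6.69 FPKM with compound E, against 18.3, 19.3 and 18.2 FPKM with DMSO. It fell 2.83-fold (log2 -1.50 ± 0.0416 SE, edgeR adjusted p = 6.09e-28), and in neither gene did the groups overlap. By these levels SLC1A4 was the 8th highest transporter with DMSO and the 13th with compound E. The glutamate and aspartate carriers of the same family were nearly silent: SLC1A1, SLC1A2, SLC1A3 and SLC1A6 had at most 10 counts in any library. SLC1A7, known as a glutamate transporter of the retina, had 9, 2 and 2 counts with compound E, against 23, 27 and 21 counts with DMSO, and fell (log2 -2.38 ± 0.430 SE, edgeR adjusted p = 1.90e-05). Without compound E replicate 1 its log2 fold change was -3.46.

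Among the carriers of cationic amino acids SLC7A1 fell and SLC7A3 did not pass the test. SLC7A1 (ENSG00000139514; chromosome 13, 29509410 to 29595688, minus strand), the CAT1 carrier of arginine and lysine, had 26.5, 27.4 and 26.7 FPKM with compound E, against 55.7, 54.4 and 55.2 FPKM with DMSO. It fell 2.06-fold (log2 -1.04 ± 0.0275 SE, edgeR adjusted p = 1.08e-28). SLC7A3, the CAT3 carrier, averaged 12.7 ± 0.626 FPKM with compound E and 12.1 ± 0.856 FPKM with DMSO (SD, n = 3 each; log2 0.06 ± 0.0626 SE, edgeR adjusted p = 0.489), and its groups overlapped. SLC7A2, the CAT2 carrier, had 0.186, 0.174 and 0.234 FPKM with compound E, against 0.306, 0.310 and 0.355 FPKM with DMSO. It fell 1.63-fold (log2 -0.71 ± 0.214 SE, edgeR adjusted p = 0.00800), a call lost with DESeq2 (adjusted p = 0.0808) and with limma on unfiltered FPKM (0.126). SLC7A4, of unsettled function, had 5 to 7 counts with compound E and 8 to 20 with DMSO, too few for the filter, and SLC7A14 had 0 counts in every library.

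The sodium-coupled system A carriers SLC38A1 and SLC38A2, which load cells with glutamine, alanine and serine, fell by less. They lie side by side on chromosome 12, at 46183063 to 46270017 and at 46358189 to 46372867, both on the minus strand. SLC38A1 (ENSG00000111371) had 42.1, 42.9 and 40.0 FPKM with compound E, against 63.8, 62.1 and 62.5 FPKM with DMSO, a 1.51-fold fall (log2 -0.60 ± 0.0269 SE, edgeR adjusted p = 4.84e-21). SLC38A2 (ENSG00000134294) had 65.9, 66.9 and 63.1 FPKM with compound E, against 80.6, 81.3 and 80.02 FPKM with DMSO, a 1.24-fold fall (log2 -0.31 ± 0.0264 SE, edgeR adjusted p = 1.10e-12). The groups of both genes were separate. SLC7A5 was above SLC38A2 with DMSO and below it with compound E in all libraries of each group. The third system A gene, SLC38A4, had at most 4 counts. Of the system N carriers, which move glutamine in either direction, SLC38A5 averaged 5.69 ± 0.495 FPKM with compound E and 7.05 ± 0.401 FPKM with DMSO (SD, n = 3 each) and fell (log2 -0.32, edgeR adjusted p = 0.000183; 0.0599 with limma on unfiltered FPKM), and SLC38A3 had 2 to 5 counts with compound E and 7 to 9 counts with DMSO.

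Differences among carriers of the lysosome and the other SLC36 and SLC38 genes were small. SLC38A9, the lysosomal carrier that reports arginine to mTORC1, averaged 2.52 ± 0.132 FPKM with compound E and 3.14 ± 0.181 FPKM with DMSO (SD, n = 3 each) and fell 1.25-fold (log2 -0.32 ± 0.0651 SE, edgeR adjusted p = 9.12e-05; 0.0592 with limma on unfiltered FPKM). SLC38A7, which exports glutamine from lysosomes, had a log2 fold change of -0.07 ± 0.0779 SE (edgeR adjusted p = 0.499). For the proton-coupled carriers SLC36A1, found on lysosomes and at the surface, and SLC36A4 these values were -0.04 ± 0.0907 (0.749) and 0.04 ± 0.0551 (0.597), and for SLC38A6 0.0047 ± 0.145 (0.986). In these 4 genes the groups overlapped. SLC38A10 rose instead, with 14.9, 15.3 and 15.7 FPKM with compound E, against 11.7, 11.7 and 12.03 FPKM with DMSO (1.29-fold; log2 0.37 ± 0.0357 SE, edgeR adjusted p = 4.14e-11), and its groups were separate. SLC36A2, SLC36A3, SLC38A8 and SLC38A11 had at most 11 counts in a library.

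SLC6A9 (ENSG00000196517; chromosome 1, 43991500 to 44031467, minus strand), the glycine transporter GlyT1, showed the largest fall among transporters above 1 FPKM. It had 0.527, 0.630 and 0.554 FPKM with compound E, against 6.001, 5.62 and 5.92 FPKM with DMSO. This is a 10.3-fold fall (log2 -3.36 ± 0.0973 SE, edgeR adjusted p = 2.51e-27). Over 7.83% of its exon bases it overlaps CCDC24 on the opposite strand, which had 8 to 15 counts with compound E and 27 to 38 with DMSO, and the part of that overlap was not tested. The other glycine transporter, SLC6A5 of inhibitory neurons, had 0 counts throughout.

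Taurine was the SLC6 substrate with the highest carrier level. SLC6A6 (ENSG00000131389; chromosome 3, 14402576 to 14489349, plus strand), the taurine transporter, had 43.2, 44.1 and 44.6 FPKM with compound E, against 37.3, 38.2 and 37.6 FPKM with DMSO. It rose (log2 0.22 ± 0.0269 SE, edgeR adjusted p = 1.71e-08), with separate groups, and the gene moved to the third rank among transporters with compound E, beside the seventh with DMSO. The creatine transporter SLC6A8 averaged 0.570 ± 0.0478 FPKM with compound E and 0.428 ± 0.0317 FPKM with DMSO (SD, n = 3 each) and did not pass (log2 0.41 ± 0.185 SE, edgeR adjusted p = 0.0800), though its groups did not overlap.

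The remaining SLC6 genes were at low levels. SLC6A20, a carrier of proline and other imino acids, had 1, 3 and 5 counts with compound E, against 35, 61 and 24 counts with DMSO, and fell 12.5-fold by the fitted value (log2 -3.64 ± 0.425 SE, edgeR adjusted p = 3.95e-09). SLC6A19, a carrier of neutral amino acids in intestine and kidney, had 8, 21 and 17 counts with compound E, against 11, 7 and 4 counts with DMSO. Its groups overlapped, and its call as higher (log2 1.09 ± 0.427 SE, edgeR adjusted p = 0.0416) was lost in edgeR without any of 4 single libraries (adjusted p 0.115 to 0.255), with the replicate number as a block (0.0606), with limma-voom (0.0557) and with DESeq2 (0.189). SLC6A16, an orphan member, and SLC6A4, the serotonin transporter, did not pass (log2 0.26 ± 0.242 SE and 0.20 ± 0.396 SE, edgeR adjusted p = 0.430 and 0.739).

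The dopamine transporter SLC6A3 did not reach the filter, with 18, 10 and 3 counts in the compound E libraries, against 0, 1 and 0 counts in the DMSO libraries. Summed and scaled to the totals, 31 counts against 1 are a 31.6-fold ratio, with an exact 95% interval for counting error of 5.27 to 1289, which leaves out the spread between libraries. Of the 28 transporters that did not pass the filter, 12 had 0 counts in every library, among them SLC6A11, the betaine carrier SLC6A12, the noradrenaline carrier SLC6A2, the brain proline carrier SLC6A7, and SLC6A14 and SLC6A15. A count of 0 allows up to 3 counts in a library, or 0.151 to 0.173 CPM (counts scaled to library size), for counting error only. SLC6A13 had 2 to 4 counts in a library, and SLC6A17 and SLC6A18 had at most 2.

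The 3 SLC43 genes went different ways. SLC43A1 (ENSG00000149150; chromosome 11, 57484534 to 57515786, minus strand), the LAT3 carrier of branched-chain amino acids and phenylalanine, had 0.709, 0.874 and 0.659 FPKM with compound E, against 4.63, 4.85 and 4.70 FPKM with DMSO. It fell 6.35-fold (log2 -2.67 ± 0.119 SE, edgeR adjusted p = 4.13e-21). SLC43A2 (ENSG00000167703; chromosome 17, 1569267 to 1628886, minus strand), the LAT4 carrier of the same substrates, had 14.7, 14.98 and 16.2 FPKM with compound E, against 10.6, 10.3 and 10.6 FPKM with DMSO. It rose 1.46-fold (log2 0.54 ± 0.0355 SE, edgeR adjusted p = 6.96e-16), the largest rise among transporters above 1 FPKM. SLC43A3, which carries purine nucleobases rather than amino acids, had 11.6, 11.2 and 10.8 FPKM with compound E, against 14.99, 14.6 and 15.1 FPKM with DMSO, and fell 1.34-fold (log2 -0.42 ± 0.0443 SE, edgeR adjusted p = 3.85e-10). Of its exon bases 29.9% are shared with AP000781.2 on the same strand, which had 2 to 4 counts in any library. The part of that overlap in the level of SLC43A3 was not tested. The groups of all 3 genes were separate, and their summed FPKM was 27.3 ± 0.392 with compound E and 30.1 ± 0.361 with DMSO, a difference whose sign turned when the sum was made of CPM, which are not divided by gene length.

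**Figure D4:**
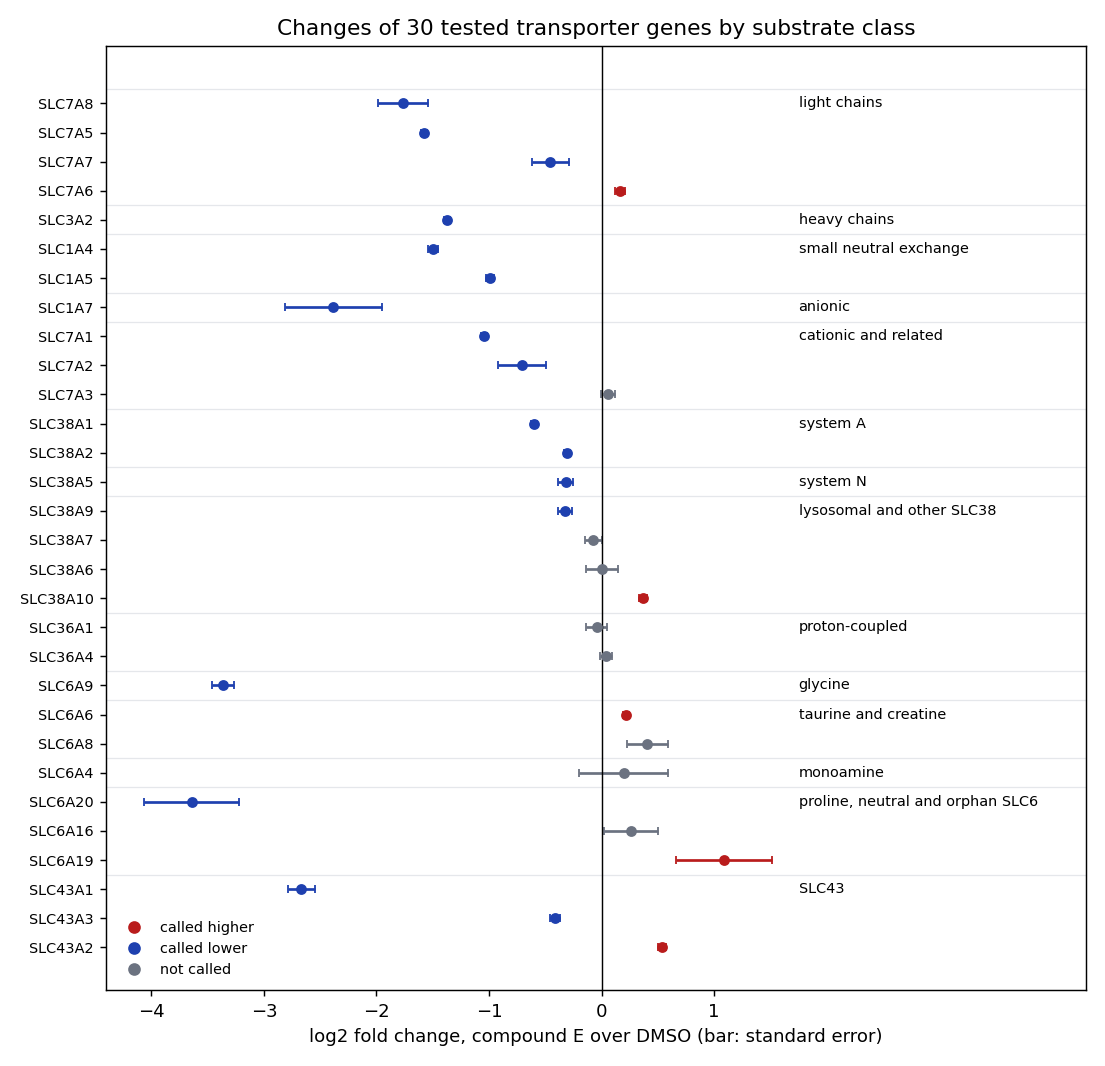
Log2 fold change, compound E over DMSO, of the 30 tested transporters by substrate class, with the standard error as a bar. Blue genes fell, red genes rose and grey genes did not pass the test. SLC6A9 lies at -3.36, SLC43A1 at -2.67 and SLC7A5 at -1.57, while SLC43A2 lies at 0.54 and the genes with wide bars are those at low counts.

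Sums over substrate classes set these differences side by side. The light chains summed to 68.3 ± 1.38 FPKM with compound E and 186 ± 1.42 FPKM with DMSO. Of these sums SLC7A5 made up 59.8 FPKM with compound E and 177 FPKM with DMSO, and SLC7A6 rose. The small neutral exchangers summed to 35.0 ± 0.821 FPKM with compound E and 74.9 ± 2.18 FPKM with DMSO, and the cationic carriers to 39.9 ± 0.431 FPKM with compound E and 67.9 ± 0.846 FPKM with DMSO. System A summed to 107 ± 3.45 FPKM with compound E and 143 ± 0.908 FPKM with DMSO. Taurine and creatine carriers were the other way round, at 44.5 ± 0.781 FPKM with compound E and 38.1 ± 0.484 FPKM with DMSO. SLC6A6 made up 44.0 FPKM of this with compound E and 37.7 FPKM with DMSO. The lysosomal and other SLC38 genes were also higher as a sum, at 21.7 ± 0.104 FPKM with compound E and 19.0 ± 0.177 FPKM with DMSO (SD, n = 3 each throughout). Most of that sum was SLC38A10, at 15.3 FPKM with compound E and 11.8 FPKM with DMSO. It was the only gene of that class called higher. SLC38A9 fell, and SLC38A6 and SLC38A7 did not pass the test.

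Carriers of amino acids outside these families were looked up from a list of 28 names, of which 27 were in the table and 20 were tested. Of these 4 rose and 3 fell, and 13 did not pass, with a median log2 fold change of 0.03, shares near the 18.9% higher and 19.4% lower of all tested genes. The number that fell was 1 without DMSO replicate 1 or without compound E replicate 1, and 1 with DESeq2. SLC7A11, the cystine exchanger that also pairs with SLC3A2, fell by 3.65 on the log2 scale, to 0.715 FPKM with compound E, against 8.93 FPKM with DMSO. SLC25A44, a mitochondrial carrier of branched-chain amino acids, rose by 0.47, SLC16A10, a carrier of aromatic amino acids, by 0.46, and SLC25A22, a mitochondrial glutamate carrier, by 0.22.

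Of 22 tested genes of ATF4 and the amino acid response, 20 fell, beside 19.4% of all tested genes, with a median log2 fold change of -1.30. ATF4, whose protein is known to induce several of the carriers above, fell to 141 FPKM with compound E, against 293 FPKM with DMSO (log2 -1.06 ± 0.0253 SE, edgeR adjusted p = 4.75e-30). PSAT1 and PHGDH, of serine synthesis, fell by 1.93 and 1.18 on the log2 scale, and MTHFD2, of mitochondrial folate metabolism, fell by 1.59. The 2 that did not pass were the kinases upstream of ATF4, EIF2AK3 (log2 0.11) and EIF2AK4 (0.04). This list overlaps one already known to move in these libraries, so it is no separate evidence. Of 34 tested genes of amino acid sensing by mTORC1, 9 rose, 6 fell and 19 did not pass, with a median of 0.07, beside 18.9% higher and 19.4% lower of all tested genes, and 2 were lower with limma on unfiltered FPKM. These shares are not far from those of all genes, and the genes named next are descriptions of single genes. WDR59, of the GATOR2 complex, fell (log2 -0.33), FNIP1, a partner of folliculin, fell (-0.30), and KPTN, of the KICSTOR complex, and SEH1L, of GATOR2, rose (0.47 and 0.23).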

How the data were processed

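Polyadenylated RNA of 6 MOLT-3 libraries was sequenced with an NEBNext Ultra kit, per the labels. The submitters' processing notes name HISAT2 2.0.5, featureCounts 1.5.0-p3 and DESeq2 1.16.1, with no role or order; build, annotation, strand use and treatment of reads with several matches are not stated there. The authors deposited raw read counts per gene and a table of FPKM values. In each library the deposited FPKM equalled the count divided by gene length and 1 depth, which matched DESeq2 size factors scaled to the geometric mean of the totals. Start, end and strand of all 58 members matched GENCODE release 29, so coordinates are on GRCh38. Log2 values were computed here from the deposited counts and FPKM.

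Counts were fitted in R 4.3.3 with edgeR 4.0.16 (filterByExpr, TMM, quasi-likelihood F-test, treatment as the only term) over 16926 genes, 25229 of 58735 having 0 counts throughout. P-values were adjusted by Benjamini-Hochberg, and genes under 0.05 were called. The SE is the log2 fold change divided by the square root of F. Levels are compared between genes only as FPKM, and such orders, shares and ratios depend on the deposited gene lengths. In simulated counts of 16926 genes, of which 50 were changed at each fold, 62% of the 1.2-fold, 80% of the 2-fold and 98% of the 4-fold changes were recovered, and 6.06% of calls were false. In the data 38.3% of tested genes were called, a far larger share than was changed in the simulation. These rates therefore need not hold for the data. Replicates of a group differed by more than sampling noise (chi-square per degree of freedom 1.65 to 2.77). The members and lists were chosen with earlier results of these data known. Values per library are given for called members of at least 1.5-fold change and for the 10 highest members, and up to 4 called genes of each other list are named; SLC1A7, SLC6A20 and SLC6A19 are given as counts, and further list genes, SLC6A3 and SLC7A4 were named after their values were seen. Alternatives were other scalings and filters, DESeq2 1.42.0, limma 3.58.1 (voom, or log2 FPKM with pseudocounts of 1 and 0.1), the replicate number as a block, and each library left out. Figures were drawn with matplotlib 3.10.9. Intervals and floors cover counting error only. One member enters the counts and sums but is not reported by name here.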

Additional observations from a re-analysis of the deposited data

How the results depend on the processing

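Of the 22 calls of transporters, 16 (13 lower, 3 higher) held in every one of 16 alternatives that gave the gene a value, and no called member changed sign; the other 6 were SLC6A19, SLC7A7, SLC7A2, SLC38A5, SLC38A9 and SLC7A6. The members called lower were 12 with a filter of 5 CPM in 3 libraries, which tests 21 of them, 15 with DESeq2 and 13 with limma on unfiltered FPKM, where 3 were called higher. Without a filter SLC7A4 was added as lower (edgeR adjusted p = 0.0476) and SLC6A3 as higher (3.61e-06). SLC7A4 was called without DMSO replicate 1 (edgeR adjusted p = 0.0137), but not without any single compound E library (0.0699 to 0.125). It was also not called with DESeq2 (adjusted p = 0.183) or limma on unfiltered FPKM (0.254). SLC6A3 was called in edgeR without DMSO replicate 1, 2 or 3 or compound E replicate 3. It was not called with limma on unfiltered FPKM (adjusted p = 0.175), and DESeq2 gave it no adjusted p. With a library left out, 16 to 18 were lower and 4 to 6 higher, and the median of the members ranged from -0.36 to -0.30. With limma on log2(FPKM + 1) that median was -0.21, with and without the filter, since the pseudocount shrinks low genes. Over all genes DESeq2 called 2134 lower, limma on unfiltered FPKM 1874 lower and 2128 higher, and edgeR 2833 to 3041 lower and 2838 to 3027 higher without single libraries.

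Of the other carriers, 1 was lower with DESeq2, 1 lower and 2 higher with limma on unfiltered FPKM, and 1 to 4 lower and 3 to 5 higher without single libraries (1 lower without DMSO replicate 1 or compound E replicate 1). Amino acid sensing genes had 2 lower with limma on unfiltered FPKM, and 5 to 6 lower and 7 to 10 higher without single libraries; the amino acid response had 20 to 21 lower. Where not stated, the cause was not tested. Summed as CPM, which weight long genes more, the log2 ratio of compound E to DMSO was 0.14 for the SLC43 genes (reversed from -0.14), -0.94 for the cationic carriers, -1.39 for the light chains, -1.18 for the small neutral exchangers and -0.65 for all members. Ratios to SLC3A2 without single libraries were -0.21 to -0.19 (SLC7A5), 1.51 to 1.58 (SLC7A6), 0.84 to 1.05 (SLC7A7) and -0.62 to -0.27 (SLC7A8). Deviations of same-numbered replicates from their group means were nearly uncorrelated (correlations -0.0191 to 0.0103). Counting noise can hide a shared deviation, so whether these replicates were handled together is not known. With the replicate block 17 members were lower and 4 higher, with SLC6A19 lost. Depth limits the members under 1 FPKM most: 9 of the 30 tested.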

Other observations

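Near-identical copies can share reads with a member. SLC7A5P1, an unprocessed pseudogene of SLC7A5 on chromosome 16, had 105, 104 and 116 counts with compound E, against 96, 137 and 120 counts with DMSO (log2 fold change -0.09 ± 0.137 SE), while SLC7A5 itself fell. SLC7A5P2, SLC6A6P1 and SLC6A10P, copies of SLC7A5, SLC6A6 and SLC6A8, had 0 counts in all 6 libraries. How reads with several matches were treated is not stated, so these counts of 0 do not show that the copies were silent. By mean FPKM among the protein-coding genes of the table, SLC7A5 ranked 528 with compound E and 126 with DMSO, SLC3A2 ranked 1360 with compound E and 355 with DMSO, and SLC38A2 ranked 477 with compound E and 335 with DMSO. SLC6A6 ranked 807 with compound E and 961 with DMSO.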
